A study of Homo sapiens with 12 samples.

Results

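The 10 genes described here encode chaperones and other factors of the endoplasmic reticulum (ER), together with XBP1, the transcription factor that drives many genes of this kind. They are HSPA5, HSP90B1, DNAJB9, DNAJC3, SDF2L1, PDIA4, HERPUD1, XBP1, CRELD2 and MANF, chosen by name from 28163 gene symbols on chromosomes 1 to 22 and X. Earlier results of these data were known when they were chosen. Where the tables list several transcript models of a gene, the one that gathered most fragments in all stands for it. All 10 genes passed the filter on low counts and were tested among 15669 genes.

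Poly(A) RNA was sequenced from PC3, a line from a human prostate adenocarcinoma, and from MG63, a line from a human osteosarcoma, both labelled wild type. Each line received a non-targeting siRNA (siControl), siRNA against LARP4A (siLARP4A) or siRNA against LARP4B (siLARP4B), at 10 nM in a lipid reagent, and RNA was taken after 72 h. Each of the 6 groups had 2 libraries, described by the submitters as biological replicates. LARP4A, listed in the tables as LARP4, and LARP4B are related RNA-binding proteins that bind mRNA and poly(A)-binding protein. The control libraries also went through transfection, and no untransfected group was analysed here. The labels give neither the siRNA sequences nor how many sequences were used per target, and each tumour type was represented by 1 line.

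When unfolded proteins build up in the ER, the sensors IRE1 (gene ERN1), PERK (gene EIF2AK3) and ATF6 start the unfolded protein response. IRE1 removes a short intron from XBP1 mRNA, which then encodes an active transcription factor; ATF6 is cut in the Golgi and its released part enters the nucleus; PERK slows translation and favours ATF4. XBP1 and the ATF6 fragment act with the factor NF-Y on promoters that carry the ER stress response element (ERSE), and secretory cells rely on the genes they drive for folding capacity.

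The ERSE consists of CCAAT, a spacer of any 9 bases and CCACG, and the related ERSE-II of ATTGG (the reverse complement of CCAAT), a spacer of 1 base and CCACG, so both overlap the CCAAT box, which NF-Y binds, and the CCACG half-site. RefSeq promoter windows on GRCh38.p14, from 250 bases before to 50 bases after the annotated start, were matched on both strands, and all 10 genes had a window. An ERSE was found in 4 of the 10 genes (HSPA5, HSP90B1, XBP1 and CRELD2) and in 0.0769% of all 35116 windows. An ERSE-II was found in 2 of the 10 (SDF2L1 and HERPUD1) and in 0.0541% of all windows. These stretches are printed because such sites are the ones through which the pathway is known to act. They run 5′ to 3′ on the strand of the gene, and the fixed letters of the motif on either strand are in capitals:
HSPA5, chr9:125241376-125241424, minus strand, ERSE from 66 to 48 bases before the start: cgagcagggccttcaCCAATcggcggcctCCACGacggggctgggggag
HSP90B1, chr12:103930201-103930249, plus strand, ERSE from 194 to 176 bases before the start: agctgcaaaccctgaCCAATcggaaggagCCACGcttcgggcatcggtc
HSP90B1, chr12:103930306-103930354, plus strand, ERSE on the opposite strand from 89 to 71 bases before the start: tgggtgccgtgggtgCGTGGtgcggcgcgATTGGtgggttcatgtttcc
XBP1, chr22:28800588-28800636, minus strand, ERSE from 52 to 34 bases before the start: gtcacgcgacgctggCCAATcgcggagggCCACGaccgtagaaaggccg
CRELD2, chr22:49918539-49918587, plus strand, ERSE on the opposite strand from 80 to 62 bases before the start: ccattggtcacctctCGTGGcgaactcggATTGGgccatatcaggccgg
HERPUD1, chr16:56932010-56932050, plus strand, ERSE-II from 117 to 107 bases before the start: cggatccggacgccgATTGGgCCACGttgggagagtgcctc
SDF2L1, chr22:21642099-21642139, plus strand, ERSE-II on the opposite strand from 188 to 178 bases before the start: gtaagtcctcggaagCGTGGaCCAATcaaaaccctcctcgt

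DNAJB9, DNAJC3, PDIA4 and MANF had neither full motif in these windows. The separate letters CCAAT and CCACG were present in all 10 windows, but also in 34.6% and 38.1% of all windows. A further XBP1-related motif, TGACGTGG (the core of the unfolded protein response element), was in 0 of the 10 and in 0.729% of all windows. These are matches of letters, and no binding was measured in these libraries.

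**Figure D1:**
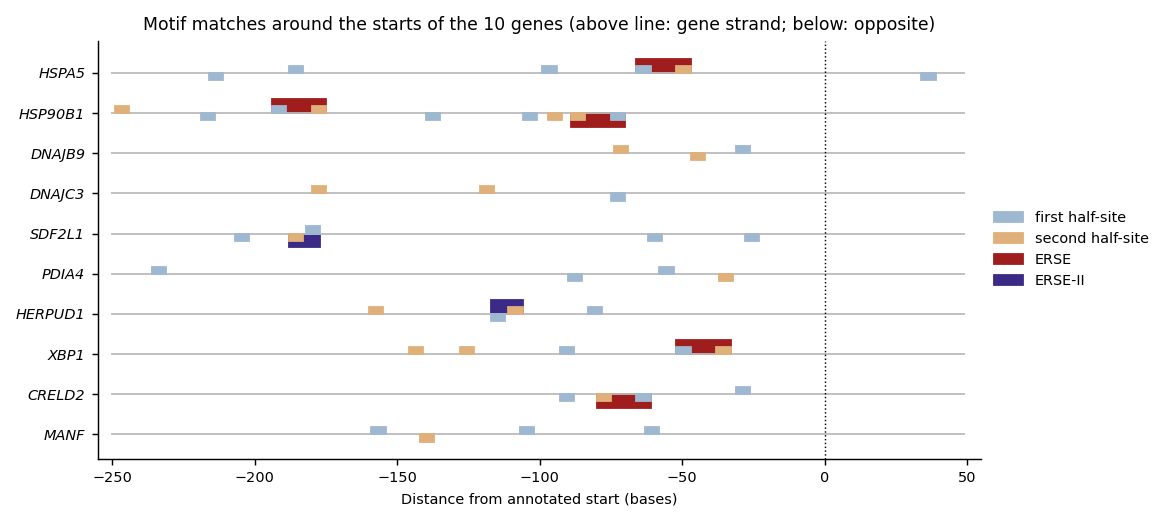
Positions of motif matches in the promoter windows of the 10 genes, in bases from the annotated start (dotted line), with matches on the strand of the gene above each line and matches on the opposite strand below it. HSPA5, HSP90B1, XBP1 and CRELD2 carry an ERSE, SDF2L1 and HERPUD1 an ERSE-II, and every gene has both separate half-sites.

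Library totals ran from 16950119 to 24864977 fragments. The targeted genes matched the labels: LARP4 was at 18.9 and 19.4 FPKM (fragments per kilobase of model, scaled to the library total) in PC3 siControl and at 2.36 and 2.47 with siLARP4A, and at 8.18 and 8.50 against 2.11 and 2.19 in MG63. LARP4B was at 7.02 and 7.18 FPKM in PC3 siControl and at 1.35 and 1.26 with siLARP4B, and at 6.64 and 6.78 against 1.89 and 2.20 in MG63. LARP4 also rose in MG63 with siLARP4B (1.35-fold, edgeR adjusted p = 5.2e-06). All 8 epithelial markers examined were higher in every PC3 library than in every MG63 library (EPCAM 18.6 to 25.3 against 0 to 0.066 FPKM), although KRT8 and KRT18 were also detected in MG63, at 25.7 to 40.2 FPKM. Of the 8 mesenchymal markers, the collagens COL1A1, COL1A2, COL3A1 and COL6A3 and THY1 and PRRX1 were higher in every MG63 library, and TWIST1 was higher in PC3. RUNX2, PRRX1 and the epithelial marker ESRP1 were under 1 FPKM in both lines. The replicates of each group differed by more than counting error (chi-square per degree of freedom 1.65 to 6.44), with PC3 siLARP4A and MG63 siLARP4B the most spread.

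In the control libraries the 10 genes covered a wide range of levels. HSP90B1 and HSPA5, the most abundant ER chaperones, were highest in both lines, and DNAJB9 and DNAJC3, which encode co-chaperones, were lowest. In PC3 siControl the order by mean FPKM was HSP90B1 (379), HSPA5 (215), MANF (126), PDIA4 (86.9), SDF2L1 (66.1), XBP1 (47.4), CRELD2 (27.0), HERPUD1 (18.5), DNAJC3 (8.97) and DNAJB9 (6.90), and no neighbours in this order overlapped. In MG63 siControl it was HSP90B1 (469), HSPA5 (247), PDIA4 (99.0), MANF (74.7), XBP1 (73.4), HERPUD1 (38.8), SDF2L1 (34.4), CRELD2 (34.1), DNAJC3 (13.5) and DNAJB9 (2.26), and here MANF overlapped XBP1 and SDF2L1 overlapped CRELD2.

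All 10 genes differed between the control libraries of the lines, 3 higher and 7 lower in PC3. Of all tested genes 81.8% differed, 42.1% higher and 39.7% lower. DNAJB9 was 2.73-fold, SDF2L1 1.72-fold and MANF 1.51-fold higher in PC3. HERPUD1 was lowest in PC3 relative to MG63, at 0.426 of the MG63 level, and HSPA5, HSP90B1, DNAJC3, PDIA4, XBP1 and CRELD2 were at 0.577 to 0.786 of it. The edgeR adjusted p ranged from 6.7e-15 for HERPUD1 to 3e-06 for CRELD2. The lines were grown in different media, so line and medium cannot be told apart.

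**Figure D2:**
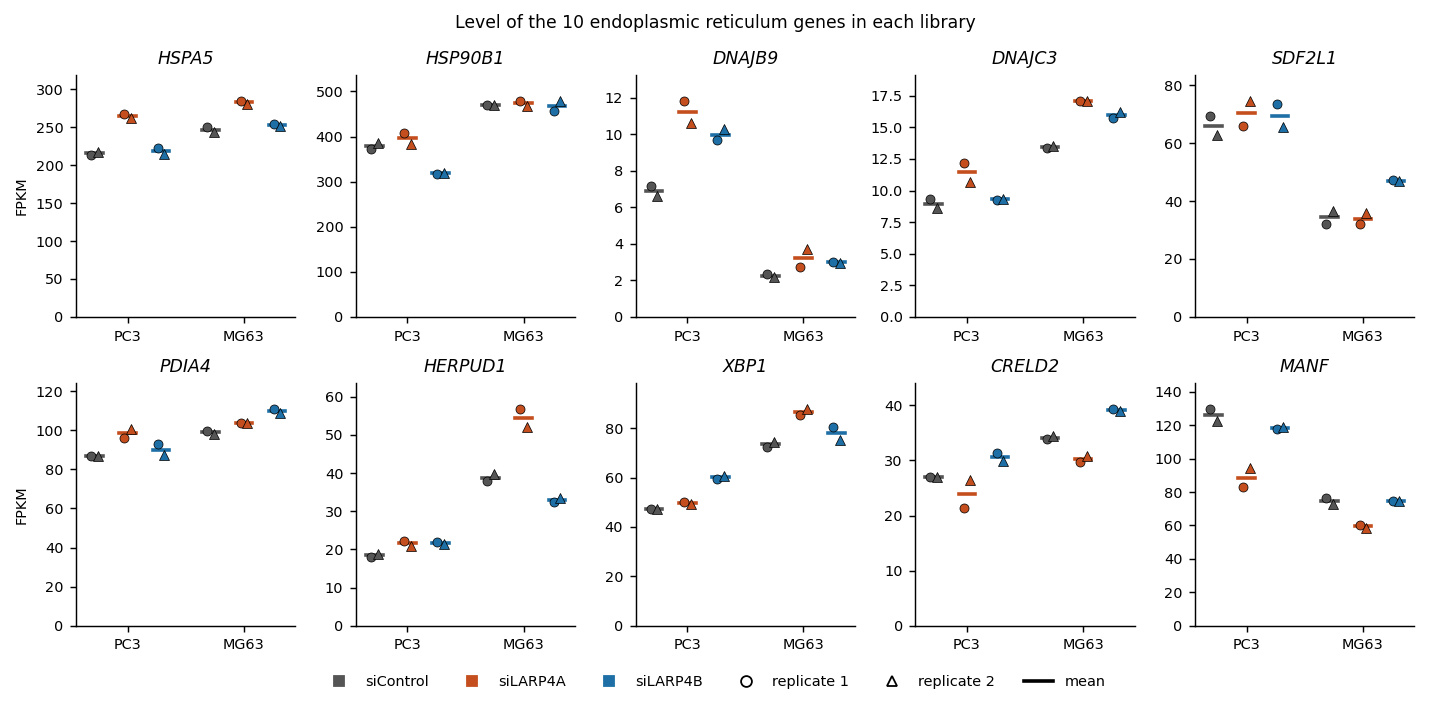
FPKM of each of the 10 genes (vertical axes from 0, each with its own scale) in the 12 libraries, by line and siRNA; circles are replicate 1, triangles replicate 2 and bars the mean of the pair. HSPA5 is higher in both siLARP4A libraries than in both siControl libraries of the same line, and MANF is lower.

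With siLARP4A, HSPA5, its co-chaperone genes DNAJB9 and DNAJC3, and HERPUD1 rose in both lines, while MANF, which encodes a secreted ER-resident neurotrophic factor, fell in both. PDIA4 rose in PC3 and XBP1 in MG63. HSP90B1, SDF2L1 and CRELD2 passed the test in neither line. In PC3, 5 of the 10 genes rose and 1 fell, against 17.0% of all tested genes that rose, 19.0% that fell and 36.0% that passed in either direction. In MG63, again 5 of the 10 rose and 1 fell, against 14.5%, 11.9% and 26.4%. Well-counted genes pass more often: of the 8411 genes with a mean of at least 5 FPKM, a class that holds all 10, 20.6% rose in PC3 and 17.1% in MG63. Those that fell were 27.3% and 18.2%, and 47.9% and 35.3% passed in either direction. The PC3 total in either direction thus lies nearer to the share of well-counted genes than to that of all tested genes. Because the genes were chosen with earlier results of these data known, these counts are no test of them as a set. The median log2 fold change of the 10 genes was 0.12 in PC3 and 0.15 in MG63, beside 0.000 and 0.010 for all tested genes. No change of any of the 10 reached 2-fold. In such bulk libraries, a change in every cell and a larger one in some cells cannot be told apart.

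With siLARP4B, DNAJB9 rose in both lines. In PC3, XBP1 and HERPUD1 also rose and HSP90B1 fell, and the other 6 did not pass. In MG63, SDF2L1, DNAJC3, CRELD2 and PDIA4 also rose and HERPUD1 fell. The PC3 count, 3 higher and 1 lower of 10, lies close to the background of 21.3% higher, 23.4% lower and 44.7% in either direction, and is not a result about these genes as a set. In MG63 5 of 10 rose and 1 fell, against 18.8%, 16.3% and 35.1% of all tested genes. Among well-counted genes the shares were 27.4% higher, 19.7% lower and 47.0% in either direction. The MG63 count was lower when any 1 of the libraries compared was left out, so it is uncertain. Within a line, both siRNAs were set against the same siControl pair, so their changes share the error of those libraries. The median log2 fold change of the 10 genes was 0.02 in PC3 and 0.15 in MG63, beside 0.003 and 0.000 for all tested genes.

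The share of the fragments taken by the 10 genes, over the rows used, gives the same levels in sum. The PC3 libraries gave 0.274% and 0.278% in siControl, 0.311% and 0.306% under siLARP4A, and 0.274% and 0.271% under siLARP4B. The share in MG63 was 0.333% and 0.328%, 0.359% and 0.355%, and 0.334% and 0.342% in those groups. The siLARP4A libraries were thus highest in each line, and these sums are carried largely by HSP90B1 and HSPA5, with 265685 and 221852 fragments over the 12 libraries.

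**Figure D3:**
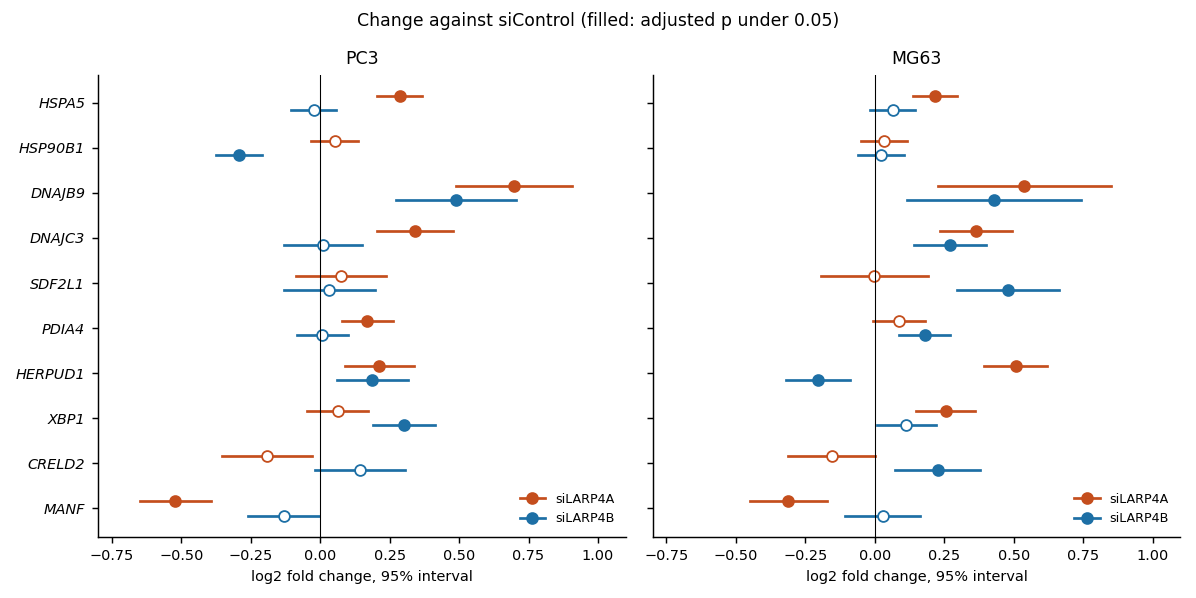
Log2 fold change against siControl for each of the 10 genes in PC3 and in MG63, with 95% intervals from the edgeR fit; filled points have an adjusted p under 0.05. HSPA5, DNAJB9, DNAJC3 and HERPUD1 lie to the right with siLARP4A in both panels and MANF lies to the left, while HERPUD1 with siLARP4B is to the right in PC3 and to the left in MG63.

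HSPA5 encodes BiP, the ER member of the Hsp70 family, which binds unfolded chains and holds the stress sensors inactive. It maps to the minus strand of chromosome 9 (125234853 to 125241343). In PC3 it was at 213 and 218 FPKM in siControl, 267 and 262 with siLARP4A, and 223 and 214 with siLARP4B. The MG63 values were 250.1 and 243, 285 and 281, and 254 and 252 in the same groups. Both siLARP4A libraries lay above both siControl and both siLARP4B libraries of their line. The rise with siLARP4A was 1.22-fold in PC3 (log2 0.29, SE 0.039, edgeR adjusted p = 4.6e-06) and 1.16-fold in MG63 (log2 0.22, SE 0.039, edgeR adjusted p = 0.0002). With siLARP4B the interval of the log2 change ran from -0.10 to 0.06 in PC3 and from -0.02 to 0.15 in MG63.

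DNAJB9 (ERdj4), on the plus strand of chromosome 7 (108569874 to 108574850), encodes a J-domain co-chaperone of BiP that serves protein degradation and recruits BiP to IRE1. Its PC3 levels were 7.17 and 6.63 FPKM in siControl, 11.8 and 10.6 with siLARP4A, and 9.66 and 10.3 with siLARP4B. In MG63 they were 2.34 and 2.17, 2.76 and 3.69, and 3.01 and 2.95. Every knockdown library was above both control libraries of its line, and the siLARP4A pair in MG63 was wide apart. In PC3 DNAJB9 rose 1.62-fold with siLARP4A (log2 0.70, SE 0.10, edgeR adjusted p = 1e-05) and 1.40-fold with siLARP4B (log2 0.49, SE 0.10, edgeR adjusted p = 0.00053). In MG63 it rose 1.45-fold with siLARP4A (log2 0.54, SE 0.15, edgeR adjusted p = 0.0097) and 1.35-fold with siLARP4B (log2 0.43, SE 0.15, edgeR adjusted p = 0.03). The MG63 calls depended on single libraries: without MG63 siLARP4A replicate 2 the first became 0.30 (edgeR adjusted p = 0.26) and without MG63 siControl replicate 2 it became 0.47 (edgeR adjusted p = 0.098). The second was lost without any 1 of its 4 libraries (log2 0.36 to 0.48, edgeR adjusted p = 0.076 to 0.18) and in DESeq2 (adjusted p = 0.067).

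DNAJC3 (p58IPK), on the plus strand of chromosome 13 (95677139 to 95794988), encodes another J-domain partner of BiP. It was at 9.32 and 8.61 FPKM in PC3 siControl, 12.2 and 10.7 with siLARP4A, and 9.25 and 9.33 with siLARP4B. In MG63 the values were 13.4 and 13.6, 17.1 and 17.1, and 15.7 and 16.2. The siLARP4A libraries were above the controls in both lines, and the siLARP4B libraries were above them in MG63 and overlapped them in PC3. The rises were 1.27-fold (log2 0.34, SE 0.066, edgeR adjusted p = 0.00027) and 1.29-fold (log2 0.36, SE 0.062, edgeR adjusted p = 0.00012) with siLARP4A in PC3 and MG63, and 1.21-fold with siLARP4B in MG63 (log2 0.27, SE 0.062, edgeR adjusted p = 0.0016).

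SDF2L1, on the plus strand of chromosome 22 (21642302 to 21644299), encodes a soluble ER protein that works with BiP co-chaperones to keep clients from aggregating. In PC3 it was at 69.2 and 63.0 FPKM in siControl, 65.9 and 74.7 with siLARP4A, and 73.4 and 65.6 with siLARP4B, all overlapping. Its MG63 levels were 32.2 and 36.5 in siControl and 32.0 and 35.8 with siLARP4A, but 47.3 and 46.8 with siLARP4B. Only the MG63 siLARP4B pair stood clear of its controls, 1.40-fold higher (log2 0.48, SE 0.088, edgeR adjusted p = 0.00019).

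HSP90B1 encodes GRP94, the ER member of the Hsp90 family, and maps to the plus strand of chromosome 12 (103930410 to 103947926). The microRNA gene MIR3652 lies within it, and the HSP90B1 pseudogene HSP90B2P had at most 100 fragments in a library. HSP90B1 was at 373 and 385 FPKM in PC3 siControl, 408 and 384 with siLARP4A, and 317.5 and 319.5 with siLARP4B. In MG63 it stayed between 458 and 480 FPKM in all 6 libraries. The PC3 siLARP4B libraries lay below all the others of that line, and HSP90B1 fell there to 0.816 of the control (log2 -0.29, SE 0.040, edgeR adjusted p = 3e-06). The other 3 log2 changes were 0.02 to 0.05, with intervals within -0.06 and 0.13. In PC3 with siLARP4A the call depends on a library: without PC3 siLARP4A replicate 2 the value was 0.13 and passed (edgeR adjusted p = 0.024).

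PDIA4 (ERp72), on the minus strand of chromosome 7 (149003051 to 149028505), encodes a protein disulfide isomerase. It was at 86.7 and 87.1 FPKM in PC3 siControl, 96.2 and 100.9 with siLARP4A, and 92.8 and 87.2 with siLARP4B. MG63 libraries gave 99.8 and 98.2, 103.6 and 104, and 110.8 and 109.1. Every knockdown library was above both of its controls in FPKM, by small steps, but not every change passed. The log2 change was 0.01 with siLARP4B in PC3 (edgeR adjusted p = 0.91) and 0.09 with siLARP4A in MG63 (edgeR adjusted p = 0.16). PDIA4 rose 1.13-fold with siLARP4A in PC3 (log2 0.17, SE 0.045, edgeR adjusted p = 0.0045) and 1.13-fold with siLARP4B in MG63 (log2 0.18, SE 0.044, edgeR adjusted p = 0.0031). Without MG63 siControl replicate 2 the latter was 0.16 and did not pass (edgeR adjusted p = 0.054).

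HERPUD1, on the plus strand of chromosome 16 (56932142 to 56944864), encodes an ER membrane protein with a ubiquitin-like domain that helps to assemble the degradation complex. In PC3 it was at 18.1 and 18.8 FPKM in siControl, 22.2 and 21.0 with siLARP4A, and 21.8 and 21.5 with siLARP4B. The MG63 libraries had 38.0 and 39.6, 56.7 and 52.1, and 32.5 and 33.6. The siRNA groups did not overlap their controls, and in MG63 the siLARP4A pair lay above and the siLARP4B pair below them. HERPUD1 rose in PC3 1.16-fold with siLARP4A (log2 0.21, SE 0.060, edgeR adjusted p = 0.0078) and 1.14-fold with siLARP4B (log2 0.19, SE 0.061, edgeR adjusted p = 0.015). In MG63 it rose 1.42-fold with siLARP4A (log2 0.51, SE 0.054, edgeR adjusted p = 3.5e-07) and fell to 0.868 with siLARP4B (log2 -0.20, SE 0.056, edgeR adjusted p = 0.0064). Without MG63 siControl replicate 2 this fall was -0.18 and did not pass (edgeR adjusted p = 0.065).

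XBP1, on the minus strand of chromosome 22 (28794560 to 28800572), was at 47.4 and 47.3 FPKM in PC3 siControl, 50.3 and 49.5 with siLARP4A, and 59.6 and 60.7 with siLARP4B. MG63 levels were 72.6 and 74.2, 85.3 and 87.7, and 80.6 and 75.2. All knockdown libraries were above their controls, with the siLARP4B pair highest in PC3 and the siLARP4A pair highest in MG63. XBP1 rose 1.23-fold with siLARP4B in PC3 (log2 0.30, SE 0.053, edgeR adjusted p = 7e-05) and 1.19-fold with siLARP4A in MG63 (log2 0.26, SE 0.051, edgeR adjusted p = 0.0006). Its change was 0.06 with siLARP4A in PC3 (edgeR adjusted p = 0.39) and 0.11 with siLARP4B in MG63 (edgeR adjusted p = 0.09). The tables list 2 XBP1 models whose lengths differ by 26 bases, as the spliced and unspliced forms do. A fragment in their shared exons is counted in both, and the counts of the models differed by only 1 to 8 fragments in a library, so the spliced share, and with it the activity of IRE1, was not measurable here.

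CRELD2, on the plus strand of chromosome 22 (49918634 to 49927537), encodes a secreted ER stress protein with disulfide isomerase-like activity. It was at 27.0 and 26.9 FPKM in PC3 siControl, 21.4 and 26.4 with siLARP4A, and 31.4 and 29.9 with siLARP4B. In MG63 it was at 33.8 and 34.5, 29.7 and 30.9, and 39.3 and 39.0. In both lines the siLARP4A libraries lay below and the siLARP4B libraries above the controls. Against siControl it passed in 1 comparison, 1.17-fold higher with siLARP4B in MG63 (log2 0.23, SE 0.074, edgeR adjusted p = 0.02), and that call was lost without any 1 of its 4 libraries (log2 0.21 to 0.23, edgeR adjusted p = 0.067 to 0.12) and in DESeq2 (adjusted p = 0.053). With siLARP4A its log2 change was -0.19 in PC3 (edgeR adjusted p = 0.06) and -0.16 in MG63 (edgeR adjusted p = 0.14). Without PC3 siLARP4A replicate 2 the PC3 value was -0.31 and passed (edgeR adjusted p = 0.0013), and with no expression filter it was -0.19 and passed (edgeR adjusted p = 0.045). With the libraries of the comparison only, the MG63 value was -0.17 and passed (edgeR adjusted p = 0.031).

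MANF, on the plus strand of chromosome 3 (51385291 to 51389397), encodes a small secreted protein that is retained in the ER with BiP. It was at 129.6 and 122.3 FPKM in PC3 siControl, 82.9 and 94.3 with siLARP4A, and 117.5 and 119.2 with siLARP4B. In MG63 it was at 76.5 and 73.0, 60.2 and 58.7, and 74.9 and 74.7. The siLARP4A libraries were the lowest of each line, in the direction opposite to HSPA5 in the same libraries. MANF fell to 0.697 of the control in PC3 (log2 -0.52, SE 0.061, edgeR adjusted p = 6.7e-07) and to 0.806 in MG63 (log2 -0.31, SE 0.067, edgeR adjusted p = 0.0012). With siLARP4B the changes were -0.13 (edgeR adjusted p = 0.084) and 0.03 (edgeR adjusted p = 0.78).

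Set directly against each other, the knockdowns differed for 7 of the 10 genes in PC3 and 6 in MG63. In PC3, HSP90B1, DNAJC3, HSPA5 and PDIA4 were higher with siLARP4A than with siLARP4B, and MANF, CRELD2 and XBP1 were lower. In MG63, HERPUD1, HSPA5 and XBP1 were higher with siLARP4A, and SDF2L1, CRELD2 and MANF were lower. HSPA5 was thus higher, and CRELD2 and MANF lower, with siLARP4A in both lines. The counts, 4 higher and 3 lower in PC3 and 3 higher and 3 lower in MG63, stand beside backgrounds of 27.0% higher and 27.2% lower (54.2% in either direction) and of 22.1% higher and 21.5% lower (43.6%). Among the well-counted genes 66.3% passed in PC3 and 55.9% in MG63, so the counts lie close to that share and are not a result about these genes as a set.

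The difference was 1.64-fold for HERPUD1 in MG63 (log2 0.71, SE 0.055, edgeR adjusted p = 8.4e-10), the largest of these tests, while in PC3 it was 0.02 (interval -0.10 to 0.15). HSPA5 was 1.24-fold higher in PC3 (edgeR adjusted p = 5.6e-07) and 1.11-fold in MG63 (edgeR adjusted p = 0.0027). The CRELD2 level was 0.793 (edgeR adjusted p = 0.00083) and 0.768 (edgeR adjusted p = 0.00024) of the siLARP4B level, and that of MANF 0.763 (edgeR adjusted p = 1.3e-05) and 0.790 (edgeR adjusted p = 0.00023). CRELD2 in PC3 moved from -0.34 to -0.19 on the log2 scale without PC3 siLARP4A replicate 1 and still passed (edgeR adjusted p = 0.032). XBP1 had opposite signs, -0.24 in PC3 (edgeR adjusted p = 0.00052) and 0.14 in MG63 (edgeR adjusted p = 0.027). The MG63 value was lost without MG63 siLARP4A replicate 1 (0.16, edgeR adjusted p = 0.055), siLARP4A replicate 2 (0.12, edgeR adjusted p = 0.16) or siLARP4B replicate 2 (0.09, edgeR adjusted p = 0.24), with no expression filter (0.13, edgeR adjusted p = 0.068) and in DESeq2 (0.14, adjusted p = 0.065). The PC3 difference of PDIA4, 0.16, was lost without PC3 siLARP4B replicate 2 (0.11, edgeR adjusted p = 0.1). That of DNAJB9, 0.21 (edgeR adjusted p = 0.072), passed without PC3 siLARP4A replicate 2 (0.28, edgeR adjusted p = 0.03).

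**Figure D4:**
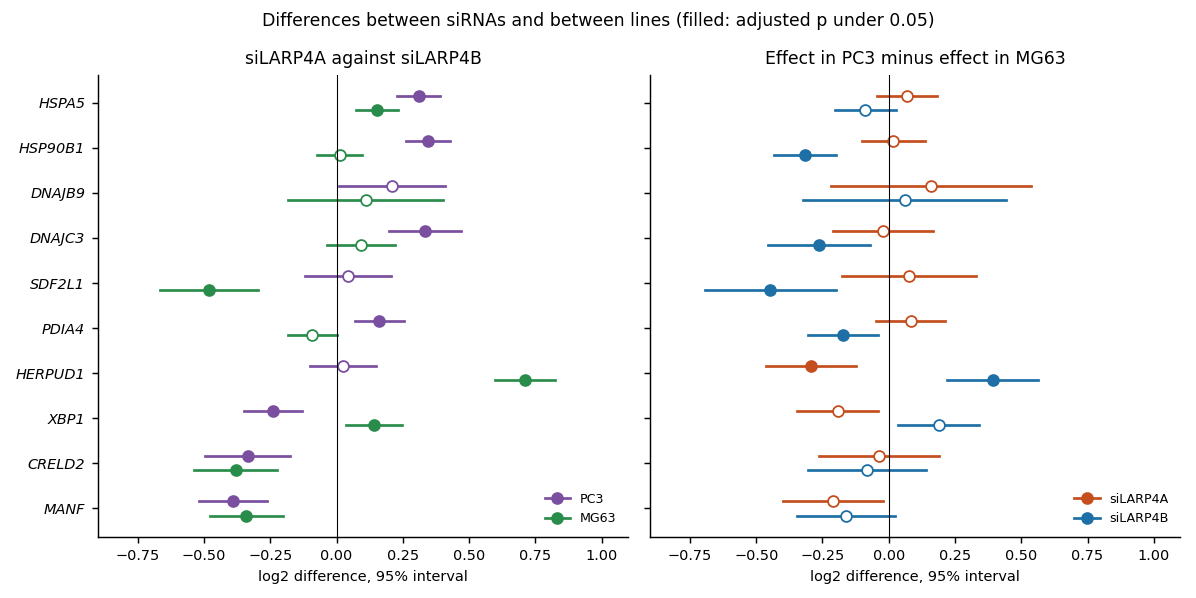
Left, log2 difference between siLARP4A and siLARP4B within each line; right, difference between lines in the log2 change against siControl, PC3 minus MG63; bars are 95% intervals and filled points have an adjusted p under 0.05. HERPUD1 in MG63 is farthest from 0 on the left, and on the right 5 genes pass with siLARP4B and HERPUD1 alone with siLARP4A.

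The effect of each siRNA was also compared between lines through the interaction term. With siLARP4A, HERPUD1 alone passed among the 10 genes, with a rise smaller in PC3 than in MG63 by 0.29 on the log2 scale (value -0.29, SE 0.081, edgeR adjusted p = 0.021). The background was 11.4% in either direction, 4.10% higher and 7.29% lower. The split of the background, 642 genes higher and 1142 lower, depended on the settings: it was 898 and 839 with the longest transcript model of each gene, 865 and 846 with the libraries of the comparison only, 584 and 552 without PC3 siControl replicate 1, 999 and 1035 without PC3 siLARP4A replicate 1, and 1104 and 924 without PC3 siLARP4A replicate 2. The HERPUD1 call was lost with the longest model (-0.25, edgeR adjusted p = 0.056), with the libraries of the comparison only (-0.25, edgeR adjusted p = 0.069) and in DESeq2 (-0.27, adjusted p = 0.078). It was also lost when PC3 siControl replicate 1 (-0.26), PC3 siControl replicate 2 (-0.23), PC3 siLARP4A replicate 2 (-0.21), MG63 siControl replicate 1 (-0.26) or MG63 siLARP4A replicate 1 (-0.23) was left out, with an edgeR adjusted p of 0.1 to 0.16. MANF, at -0.21 (edgeR adjusted p = 0.15), passed without PC3 siLARP4A replicate 2 (-0.25, edgeR adjusted p = 0.043). For HSPA5, DNAJC3 and HSP90B1 the intervals of the difference lay within -0.21 and 0.18.

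With siLARP4B, 5 of the 10 genes differed between lines, 1 higher and 4 lower in PC3, beside 27.8% of all tested genes (10.3% higher, 17.5% lower). Among the well-counted genes 38.7% differed, 11.2% higher and 27.5% lower. The count lies close to that share and is not a result about these genes as a set. SDF2L1 (-0.45, SE 0.12, edgeR adjusted p = 0.0069), HSP90B1 (-0.32, SE 0.057, edgeR adjusted p = 0.00023), DNAJC3 (-0.26, SE 0.092, edgeR adjusted p = 0.037) and PDIA4 (-0.17, SE 0.063, edgeR adjusted p = 0.047) changed less or in a lower direction in PC3. HERPUD1 went the other way (0.39, SE 0.083, edgeR adjusted p = 0.0011), having risen in PC3 and fallen in MG63. The HERPUD1 call held under each alternative, and that of HSP90B1 under each but 1: with the deduplicated table of PC3 siControl replicate 2, a table used for this library alone, it was -0.23 (edgeR adjusted p = 0.11). The call of SDF2L1 was lost without PC3 siControl replicate 1 (-0.33), PC3 siLARP4B replicate 2 (-0.33) or MG63 siControl replicate 1 (-0.37), with an edgeR adjusted p of 0.058 to 0.08. That of DNAJC3 was lost without any 1 of the 8 libraries except MG63 siLARP4B replicate 1 (-0.15 to -0.29, edgeR adjusted p = 0.054 to 0.34), and that of PDIA4 without any 1 of the 8 (-0.09 to -0.19, edgeR adjusted p = 0.05 to 0.44). Both were lost with RLE factors, the scaling DESeq2 uses (edgeR adjusted p = 0.063 and 0.082), with the longest model (edgeR adjusted p = 0.095 and 0.15) and in DESeq2 (adjusted p = 0.13 for each). In all, the DNAJC3 call was lost under 10 of 15 alternatives and the PDIA4 call under 13 of 15. XBP1, at 0.19 (edgeR adjusted p = 0.06), passed without PC3 siControl replicate 1 (0.24, edgeR adjusted p = 0.045), PC3 siLARP4B replicate 1 (0.25, edgeR adjusted p = 0.046) or MG63 siLARP4B replicate 1 (0.24, edgeR adjusted p = 0.027), and with RLE factors, the longest model or the libraries of the comparison only (0.19 to 0.23, edgeR adjusted p = 0.02 to 0.036).

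Other genes of the ER and of stress responses were taken as lists. The counts of every list stand beside the shares of all tested genes. In PC3, 17.0% rose and 19.0% fell with siLARP4A, and 21.3% and 23.4% with siLARP4B. In MG63 the shares were 14.5% and 11.9%, and 18.8% and 16.3%. Of the well-counted genes, 47.9%, 55.8%, 35.3% and 47.0% passed in either direction, in the same order. No list was tested as a set. Beside the 16 further folding genes of the ER, which include lectin chaperones, isomerases and oxidases, the 10 genes were not alone in moving both ways. In PC3 with siLARP4A, 5 of the 16 rose and 5 fell (median log2 0.05), with ERO1A (0.27) and FKBP14 (0.25) highest and CANX (-0.82) and FKBP2 (-0.44) lowest among those that passed. In PC3 with siLARP4B, 4 rose and 4 fell (median 0.02), from FKBP14 (0.68) and P4HB (0.16) to ERO1A (-0.29) and UGGT1 (-0.27). CANX encodes calnexin, and FKBP14 a prolyl isomerase that acts on collagens. In MG63 with siLARP4A, 6 rose and 2 fell (median 0.12), from FKBP14 (0.55) and P4HB (0.32) to CANX (-0.53) and FKBP2 (-0.32). In MG63 with siLARP4B, 11 rose and 1 fell (median 0.18), from FKBP14 (0.77) and P4HB (0.36) to FKBP2 (-0.23).

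The 14 tested genes of ER-associated degradation, the pathway HERPUD1 serves, were led by a fall of EDEM3, a mannosidase-like protein, in all 4 comparisons. In PC3, 6 rose and 2 fell with siLARP4A (median 0.11; SEL1L 0.51, UFD1 0.25, EDEM3 -1.37, DERL1 -0.17), and 2 rose and 8 fell with siLARP4B (median -0.20; DERL1 0.29, FAF2 0.17, EDEM3 -1.10, EDEM1 -0.46). In MG63, 5 rose and 2 fell with siLARP4A (median 0.11; SEL1L 0.45, EDEM1 0.26, EDEM3 -1.15, VCP -0.23), and 6 rose and 3 fell with siLARP4B (median 0.03; UBE2J1 0.27, DERL1 0.27, EDEM3 -0.73). SEL1L, the scaffold of the HRD1 ligase with which HERPUD1 associates, rose with siLARP4A in both lines, as HERPUD1 did. With siLARP4B its sign was opposite to that of HERPUD1 in both lines: SEL1L was at -0.22 in PC3 and 0.24 in MG63 (edgeR adjusted p = 0.0088 in each), where HERPUD1 was at 0.19 and -0.20.

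The 16 genes of translocation into the ER and export from it were mixed. In PC3, 4 rose and 7 fell with siLARP4A (median -0.05; SRPRA 0.29, SEC31A 0.27, SSR1 -0.51, SEC61G -0.46), and 6 rose and 5 fell with siLARP4B (median 0.10; SEC24D 0.40, SEC62 0.35, SRPRA -1.55, SEC63 -0.65). In MG63, 4 rose and 1 fell with siLARP4A (median 0.09; SEC61A1 0.45, SRPRB 0.33, SSR1 -0.15), and 6 rose and 3 fell with siLARP4B (median 0.07; SSR1 0.39, SSR2 0.29, SRPRA -1.30, SEC61A1 -0.26). SRPRA encodes the receptor of the signal recognition particle and fell with siLARP4B in both lines.

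A further list of 8 tested genes held the stress sensors, their processing proteases and genes of the CREB3 family. In PC3 with siLARP4A, 5 of the 8 rose and 2 fell (median 0.19; ERN1 0.43, EIF2AK3 0.42, CREB3 -0.28, CREB3L1 -0.27). With siLARP4B in PC3, 2 rose and 3 fell (median -0.07; CREB3L1 0.85, EIF2AK3 0.36, MBTPS2 -0.64, ATF6 -0.53). In MG63, 7 rose and 0 fell with siLARP4A (median 0.31; ERN1 0.61, EIF2AK3 0.53), and 0 rose and 2 fell with siLARP4B (median -0.09; ATF6 -0.49, MBTPS2 -0.43). ATF6 was thus lower with siLARP4B in both lines, and MBTPS2 encodes a protease that cuts it.

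The PERK-ATF4 arm was represented by 10 tested genes. In PC3, 5 rose and 3 fell with siLARP4A (median 0.22; SESN2 0.93, ATF3 0.75, VLDLR -0.34, ASNS -0.34), and 6 rose and 1 fell with siLARP4B (median 0.31; CHAC1 0.68, SESN2 0.68, VLDLR -1.01). In MG63, 7 rose and 0 fell with siLARP4A (median 0.74; CHAC1 2.36, SESN2 1.57), and 3 rose and 2 fell with siLARP4B (median 0.03; CHAC1 1.04, SESN2 0.71, PPP1R15A -0.31, ATF4 -0.15). SESN2 and CHAC1 are targets of ATF4, and their log2 changes in MG63 with siLARP4A (SE 0.092 and 0.23) stand beside changes of at most 0.54 among the 10 ER genes. The control levels also differed. In siControl, 9 genes of this arm were higher in PC3 than in MG63 and ATF4 alone was lower (median log2 1.71). Of all tested genes 42.1% were higher and 39.7% lower.

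For contrast, 11 tested chaperones of the cytosol and mitochondria were counted. In PC3, 3 rose and 3 fell with siLARP4A (median 0.03; BAG3 0.31, DNAJB1 0.18, HSPH1 -0.45, HSPE1 -0.42), and 3 rose and 4 fell with siLARP4B (median -0.06; DNAJB1 0.17, HSPH1 0.13, BAG3 -0.41, HSP90AA1 -0.36). In MG63, 1 rose and 6 fell with siLARP4A (median -0.14; HSPB1 0.19, HSPH1 -0.56, HSPE1 -0.39), and with siLARP4B all 11 rose (median 0.29; HSPH1 0.78, HSPD1 0.59). In the latter comparison 18.8% of all tested genes and 27.4% of the well-counted genes rose.

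**Figure D5:**
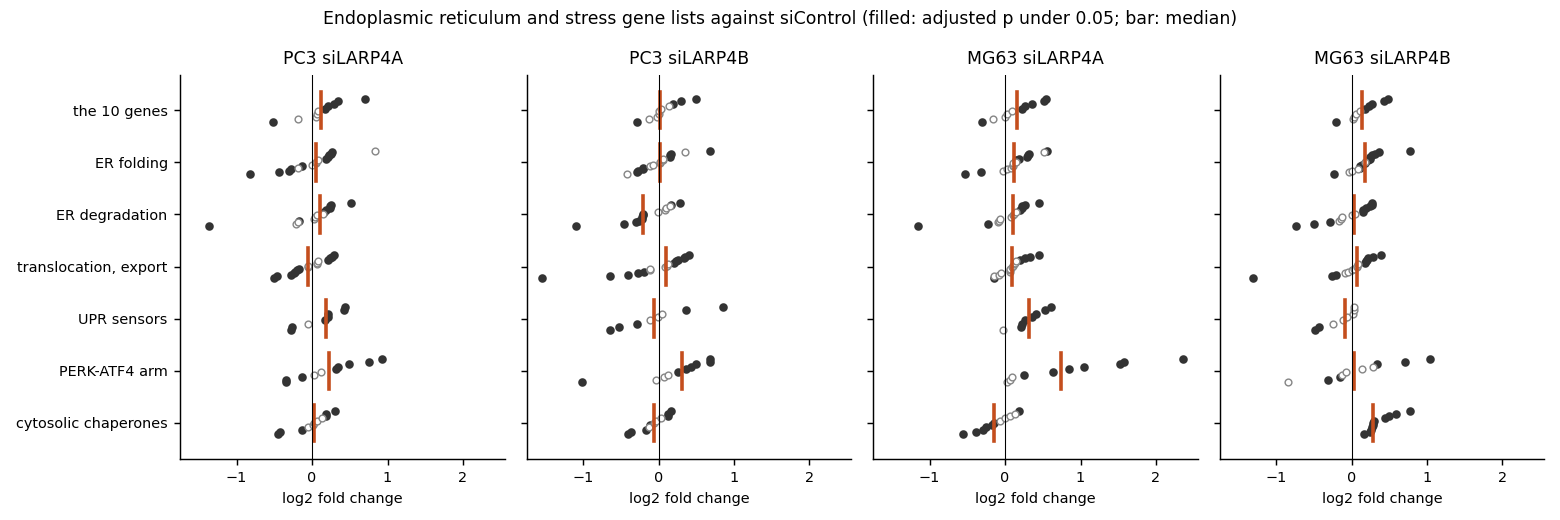
Log2 fold change against siControl (horizontal axes) of the 10 genes and of 6 lists of ER and stress genes, 1 point per tested gene, filled where the adjusted p is under 0.05, with the list median as a bar; the horizontal axis is shared. The PERK-ATF4 genes reach 2.36 in MG63 with siLARP4A, and all 11 cytosolic and mitochondrial chaperones lie above 0 in MG63 with siLARP4B.

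The promoter motifs printed above gave a further view. Beside the 6 genes with an ERSE or ERSE-II, 24 other tested genes carry either motif in the same window, CALR, CANX, HYOU1, PDIA6 and SERP1 among them. Of the 6, 2 rose in PC3 with siLARP4A (HSPA5 and HERPUD1), 2 rose and 1 fell in PC3 with siLARP4B, 3 rose in MG63 with siLARP4A, and 2 rose and 1 fell in MG63 with siLARP4B. HSP90B1, with an ERSE on each strand, was the 1 that fell in PC3 with siLARP4B. Of the 24, 5 rose and 8 fell (median log2 0.04), 3 rose and 8 fell (-0.05), 4 rose and 4 fell (0.01), and 7 rose and 3 fell (0.09) in the same order. Of all tested genes, 17.0% rose and 19.0% fell, 21.3% and 23.4%, 14.5% and 11.9%, and 18.8% and 16.3%, in that order. The counts of carriers rest on few genes, and no test was made of them. Among the 24, both directions occurred in each comparison. Of the 6, 0 passed as lower with siLARP4A in either line. CRELD2 was at -0.19 in PC3 (edgeR adjusted p = 0.06) and -0.16 in MG63 (edgeR adjusted p = 0.14). Beside falls of 19.0% and 11.9% of all tested genes, 0 of 6 is not a result about these genes as a set. The ER genes with neither full motif in their windows also differed in direction. With siLARP4A, MANF fell and DNAJB9 and DNAJC3 rose in both lines, and PDIA4 rose in PC3. Whether the motifs bear on these changes was not tested.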

How the data were processed

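Fragment counts per transcript model and FPKM values were deposited by the authors in 1 table per library, with 86394 models; per the file headers, FPKM is the fragment count scaled to the library total and model length. The submitters' processing notes name FastQC, HISAT2, featureCounts, edgeR and the build hg38, without versions or roles, and whether strand was used is not given in the sources used here. A fragment in a shared exon counts in each model, so 1 model per symbol was used, and 1748 symbols at several loci were left out because copies could split fragments. An unnamed column of further values in 3 tables was not used.

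The deposited counts of 26415 symbols were filtered with edgeR's default filter, scaled by TMM, and tested in 1 fit of all 12 libraries (edgeR 4.0.16 quasi-likelihood F-test, R 4.3.3), two-sided, with Benjamini-Hochberg adjustment over the 15669 tested genes in each of 9 comparisons and a threshold of 0.05. The common dispersion was 0.00177, a coefficient of variation of 4.21% between replicates. Because a group has 2 libraries, the variance of each gene leans on that of all genes. Counting error is covered by the fit. The script was tested on simulated data. Alternatives were DESeq2 1.42.0, other scaling, no filter, the longest model, fewer libraries in the fit, the deduplicated table of PC3 siControl replicate 2, the replicate number as a block, and leaving out each library.

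The members and lists were chosen with earlier results of these data known. All 10 members are named, LARP4 and LARP4B once as a check of the labels, and from each list the 2 highest and 2 lowest changes that passed; 1 such gene is not reported here. VIMP, an older symbol of SELENOS, is not listed, and DERL3, ATF6B, HSPA1A and HSPA1B were left out as symbols at several loci. Genes named as ERSE carriers were chosen after their values were seen.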

Additional observations from a re-analysis of the deposited data

Results flagged for a closer look

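The change against siControl differed between PC3 and MG63, by the interaction test in edgeR, for 6 pairs of gene and siRNA. These were 1 of the 10 genes with siLARP4A and 5 with siLARP4B. Of all tested genes 11.4% and 27.8% differed, and of the well-counted genes 16.6% and 38.7%. The counts are thus not a result about the 10 genes as a set. With siLARP4A, the HERPUD1 change was lower in PC3 by a log2 value of -0.29 (adjusted p = 0.021), having risen in both lines. With siLARP4B, the difference was -0.32 for HSP90B1 (adjusted p = 0.00023), which fell in PC3 and not detectably in MG63, and -0.45 for SDF2L1 (adjusted p = 0.0069), which rose in MG63. It was -0.26 for DNAJC3 (adjusted p = 0.037) and -0.17 for PDIA4 (adjusted p = 0.047), both of which rose in MG63. These are uncertain: the DNAJC3 difference was lost under 10 of 15 alternatives and that of PDIA4 under 13 of 15. The siLARP4A difference of HERPUD1 was lost under 8 of 15. The siLARP4B difference of SDF2L1 was lost under 3 of 15 and that of HSP90B1 under 1 of 15. The siLARP4B difference of HERPUD1 was 0.39 (adjusted p = 0.0011), with a rise in PC3 and a fall in MG63, and it held under each alternative. All these differences share the siControl libraries of their line with the single comparisons.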

How the results depend on the processing

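Of the 51 calls among 90 tests of the 10 genes, 39 held under every alternative run, 12 were lost under at least 1, and 0 reversed; 7 tests that did not pass did so under at least 1. The number of genes called in MG63 with siLARP4B, 6, was 2 to 4 when 1 library was left out. For the difference between lines with siLARP4A, 1 became 0 with the longest model, with the libraries of the comparison only and in DESeq2, and was 0 to 1 with 1 library left out. With siLARP4B, 5 became 3 with the deduplicated table and 3 in DESeq2, and 2 to 5 with 1 library left out. The causes were not tested. Over all tested genes, the calls with siLARP4A in MG63, 4137, fell to 2701 without MG63 siControl replicate 1, 2695 without MG63 siControl replicate 2 and 2703 without MG63 siLARP4A replicate 1. Those of the siLARP4A difference between lines, 1784, fell to 1180 in DESeq2 and to between 1048 and 1176 without PC3 siControl replicate 1, either MG63 siControl library or either MG63 siLARP4A library. The labels do not say that replicate numbers pair samples, and deviations of same-numbered libraries correlated at -0.03 to 0.08 over 12428 genes. With the replicate block, the counts were 6, 4, 6 and 6 for PC3 siLARP4A, PC3 siLARP4B, MG63 siLARP4A and MG63 siLARP4B, unchanged in number, and 4 in place of 5 for the siLARP4B difference between lines, where PDIA4 was lost (adjusted p = 0.072). With 2 libraries a group, depth limits DNAJB9 most, the gene with the fewest fragments of the 10.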

Other observations

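Over the 12 libraries, the genes whose centred log2 level was most like that of HSPA5, by root mean square difference within each line, were ABHD10 (0.035), SENP2 (0.037), ETS2 (0.040), EMC1 (0.041) and CNOT11 (0.044), out of 8401 genes with a mean of at least 5 FPKM, the 10 ER genes left out. EMC1 is a subunit of an ER membrane insertion complex. Among the other 9 ER genes, DNAJC3 (0.080, rank 200), PDIA4 (0.086, rank 275) and HSP90B1 (0.104, rank 596) came nearest to HSPA5. XBP1 ranked 2416, HERPUD1 3295, DNAJB9 4416, SDF2L1 4513, CRELD2 5607 and MANF 6637. These differences depend on the size of the changes as well as on their direction. DNAJB9 and HERPUD1, far from HSPA5 by this measure, rose with siLARP4A in both lines, as HSPA5 did. No test was made of the differences.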
